A study of Mus musculus with 27 samples.

Results

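Interferon-response genes were examined in the whole brain of 2 inbred mouse strains, C57 and DBA. The list holds 37 genes: interferon receptors and their kinases, transcription factors, feedback inhibitors and antiviral or antimicrobial effectors. A probe set is a group of short probes that gives 1 value on the array, for 1 transcript or for several related ones. The platform annotation gave several symbols to 396 sets. All probe sets whose annotation carries a listed symbol as the only one were taken. This gave 43 probe sets for 33 of the 37 genes, out of 8251 named genes on the array, and no probe set carried the symbol Stat2, Irf2, Oas1a or Bst2 alone. The C57 group was 5 untreated males, written as C57BL/2 in the labels, and the DBA group was 4 untreated DBA/2J mice whose sex is not given. All were 10 weeks old, and each contributed 1 array titled with a strain and a number, which was taken as 1 animal. The question was how resting expression of the interferon pathway differs between the strains.

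Interferons are secreted proteins that warn cells of infection. Type I interferons act through Ifnar1 and Ifnar2 and type II interferon through Ifngr1 and Ifngr2. Receptor-bound Janus kinases such as Jak1 and Jak2 then phosphorylate STAT proteins, which enter the nucleus and switch on target genes. Their DNA targets include the interferon-stimulated response element (ISRE), bound by a complex that contains Stat2 and Irf9, and the gamma-activated site (GAS). In healthy brain, without infection, most interferon-induced genes are expressed at a low level, much of it in microglia, vessels and other non-neuronal cells.

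The member called between the strains, Gbp2, is an interferon-inducible GTPase. The DNA just before the transcript start is shown for it and for the 3 other GTPase genes whose RefSeq windows hold a motif match. Ifi47, the remaining GTPase gene with a window, holds neither motif and is not shown. RefSeq windows of assembly GRCm38.p6, a C57BL/6J genome, run from 250 bases before to 50 after a transcript start. The capitals mark matches to the ISRE core (GAAA, any 2 bases, GAAA), read on either strand, or to the GAS motif TTCNNNGAA, which reads the same on both strands. Overlapping matches were kept. The stretches below begin 120 bases before the start and stop before the first base of any transcript of the gene.
Gbp2, chr3:142620543-142620662, plus strand: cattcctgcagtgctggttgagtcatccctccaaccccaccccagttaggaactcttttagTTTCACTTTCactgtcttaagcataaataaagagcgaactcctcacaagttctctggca
Gbp3, chr3:142559924-142560015, plus strand: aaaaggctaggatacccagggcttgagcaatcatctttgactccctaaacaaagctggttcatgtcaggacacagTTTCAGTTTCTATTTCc
Irgm1, chr11:48871421-48871540, minus strand: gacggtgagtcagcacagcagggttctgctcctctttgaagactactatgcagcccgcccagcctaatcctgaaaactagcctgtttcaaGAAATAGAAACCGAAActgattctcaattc
Igtp, chr11:58199436-58199555, plus strand: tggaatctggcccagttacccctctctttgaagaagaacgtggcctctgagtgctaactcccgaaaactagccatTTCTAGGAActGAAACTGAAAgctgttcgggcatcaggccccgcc

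The Gbp2 match begins 59 bases before the start, the 2 overlapping Gbp3 matches 45 and 39 bases before it, and the 2 overlapping Irgm1 matches 30 and 24 bases before it. Igtp has a GAS match at 45 and an ISRE core match at 34 bases before its start. Over all members, 31 genes had at least 1 window (38 windows), and Ifi27, Ifi204, Iigp1, Mx1, Mx2 and Usp18 had none in the table. The ISRE core was found in 36.8% of the member windows and in 3.44% of all 32851 windows, and the GAS motif in 36.8% and 8.30%. The 2 motifs were found in windows of 14 members each, 6 members had both, and 9 had neither. These are matches of letters and not sites of binding, and DBA sequence was not used here.

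**Figure D1:**
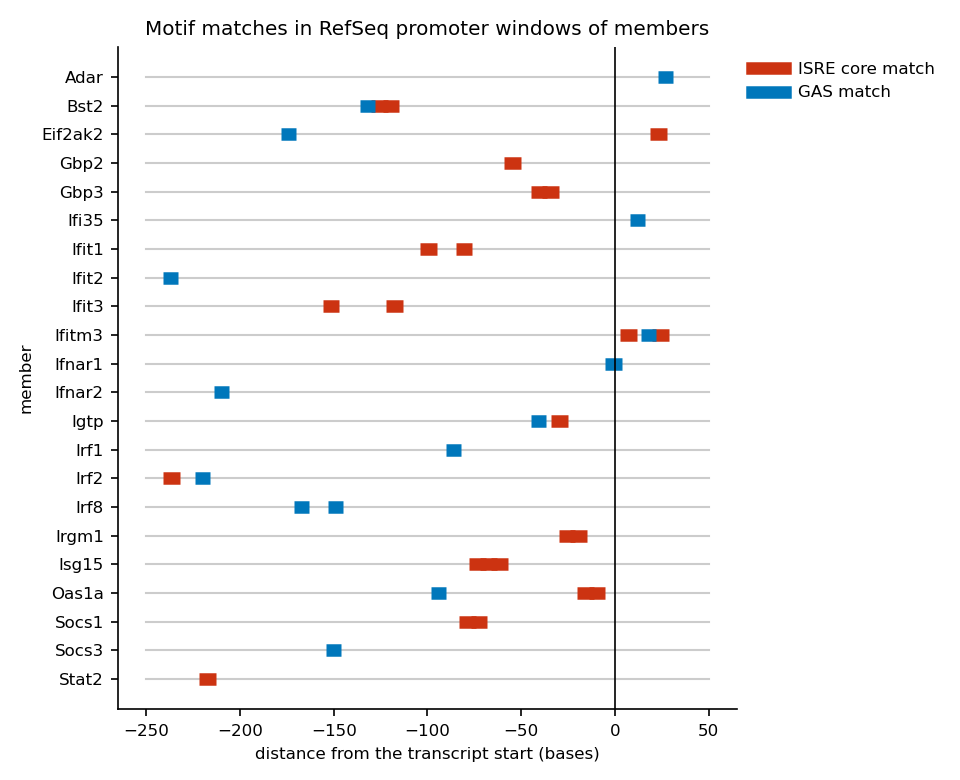
Positions of ISRE core and GAS matches in the RefSeq windows of the members that hold a match (1 line per gene, 250 bases before to 50 bases after the transcript start, distance in bases). The red ISRE core marks of Gbp2, Gbp3, Irgm1 and Igtp lie within 59 bases before the start, and the Ifitm3 and Eif2ak2 ISRE core marks lie after it.

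A probe set was tested when its mean over all arrays was not among the dimmest 25% (a brightness limit of 35.4 in the deposited intensity). This left 32 sets of 28 genes, and 11 sets were too dim, among them all sets of Usp18, Ifi47, Mx1, Ifi204 and Ifi35. Differences are log2 DBA minus C57 ± the standard error from limma, with p adjusted by the Benjamini-Hochberg method over all 9316 tested sets, and 0.05 is the threshold. Of the 32 member sets, 1 was higher in DBA and 0 were lower, against 2.50% called in either direction over all tested sets (0.891% higher and 1.61% lower). At an unadjusted limma p under 0.05, 4 member sets were higher and 3 lower (21.9%, against 12.2% of all tested sets). The median log2 difference of the tested member sets was 0.03, with 17 above and 15 below 0, and that of all tested sets was 0.01. The median size of the log2 difference, without its sign, was 0.25 over the member sets and 0.15 over all tested sets. The median standard error was 0.18 over the member sets and 0.16 over all tested sets. With the dimmest 50% left out, 11 of the 32 member sets and 6211 of the 9316 tested sets remained. The part of brightness in these medians was not tested. For 25 of the 32 member sets (78.1%, against 85.3% of all tested sets) the 95% interval of the difference lay within 2-fold in both directions. In RNA of a whole brain, fewer cells of a type and less RNA per cell cannot be told apart. Whether the probes match DBA sequence as well as C57 sequence was not tested. An intensity difference is therefore not by itself a difference in RNA.

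**Figure D2:**
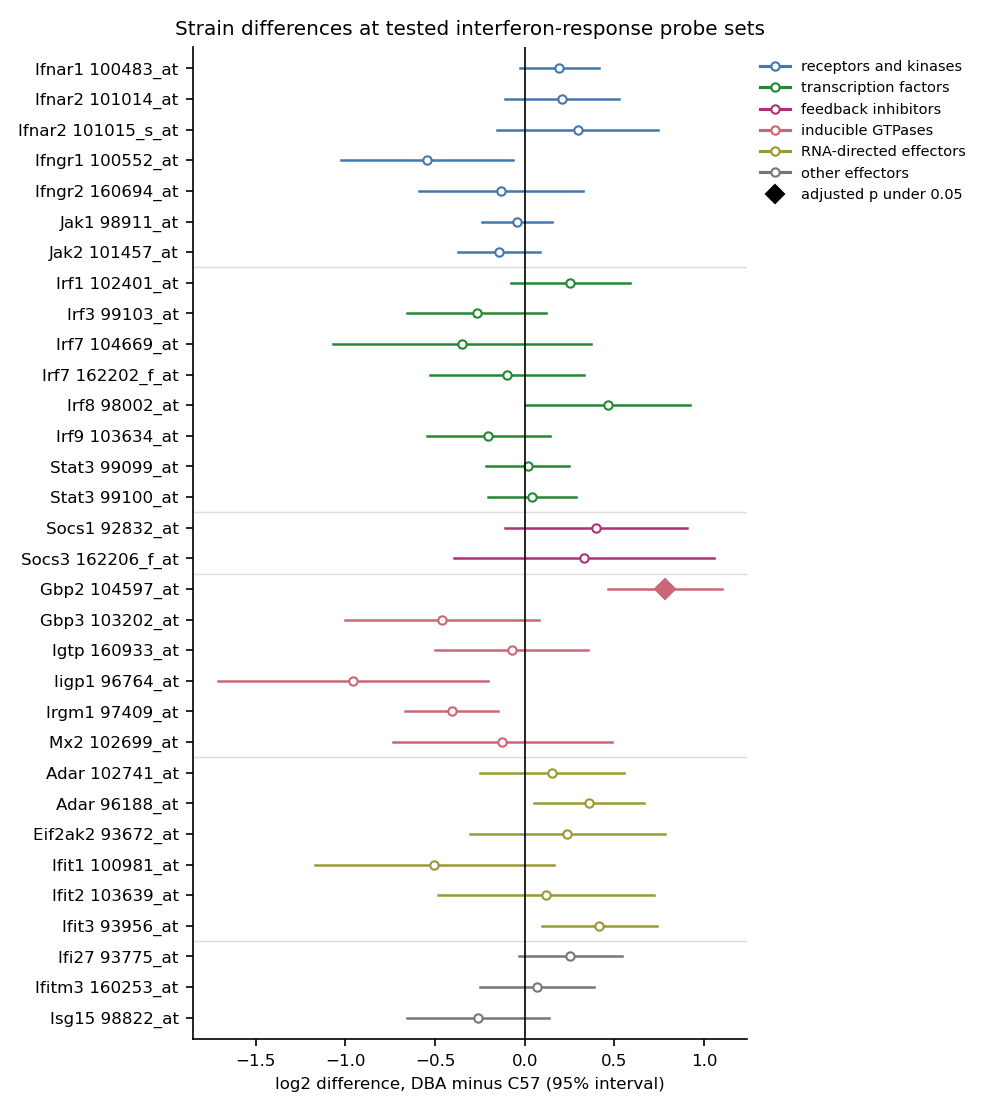
Log2 difference (DBA minus C57, horizontal axis) with its 95% interval for the 32 tested interferon-response probe sets, coloured by role, from 5 C57 and 4 DBA arrays. The filled diamond of Gbp2 at 0.78 is the 1 set past the adjusted threshold, and the open circles on either side of 0 are the sets that missed it.

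All 9 arrays had the same deposited scaling, with median intensities from 160 to 198 and correlations between arrays of 0.946 to 0.970 across probe sets. Of the cell marker genes, 10 neuron, 8 astrocyte, 7 oligodendrocyte and 12 microglia genes lay above the brightness limit, and Cnp and Fcer1g lay below it. So did 13 vessel, 7 meningeal and 3 red cell genes lie above it. The limit leaves out only the dimmest 25% of sets, so these counts cannot check the tissue label. Of the marker lists, 2 microglia sets (C1qb and C1qc) and 1 oligodendrocyte set (Mobp) were lower in DBA, and no set of the leukocyte, red cell, vessel, meningeal, astrocyte, neuron or choroid plexus lists was called. Of 11 leukocyte genes with a probe set, 5 lay above the limit, and Ptprc, Cd3e, Cd3g, Cd8a, Cd79b and S100a9 lay below it. The summed intensity of those 5 was 492 to 762 in C57 and 462 to 656 in DBA. At the Gapdh control, log2 intensity near the 3' end minus that near the 5' end was -0.29 to -0.19 in C57 and -0.44 to -0.32 in DBA, and the other 3 such controls overlapped between strains. The part of this shift in the results was not tested. Of the Y-linked genes, Eif2s3y had geometric means of 309 in C57 and 325 in DBA. Whether its probes also match related transcripts was not tested. Uty had means of 117 and 75.7 (-0.63 ± 0.31, adjusted p = 0.461 by limma), and Kdm5d, below the limit, 19.4 and 9.16. Xist, the X-linked RNA of female cells, lay at 19.6 to 36.0 in C57 and 16.4 to 24.8 in DBA, with means below the limit in both strains.

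Among the GTPases, Gbp2, a guanylate-binding protein that coats and helps to break pathogen-containing vacuoles, was the member that rose in DBA brain. Its intensity was 71.8, 53.6, 65.0, 48.7 and 47.5 in C57 arrays 1 to 5 and 106.1, 97.7, 94.0 and 91.6 in DBA arrays 1 to 4. The strains did not overlap, and the lowest DBA array was above the highest C57 array. The rise was 1.72-fold (95% interval 1.38 to 2.14, log2 difference 0.78 ± 0.14, adjusted p = 0.0159 by limma). The call was lost without DBA array 1 or DBA array 2, where no member set passed, and the log2 difference with any 1 array left out ran from 0.72 to 0.87 (adjusted p 0.00855 to 0.0601). It was also lost when the variance was allowed to depend on brightness (limma with trend and robust fitting, adjusted p = 0.101). Beside this rise, the summed intensity of the tested microglia markers was 7427 to 8848 in C57 and 7335 to 7957 in DBA (0 of 15 sets higher, 2 lower). That of the vessel markers was 3761 to 4305 and 3392 to 4283, and that of the 3 choroid plexus genes was 1109 to 3515 and 3443 to 4608. The part of these cell types in the Gbp2 value was not tested.

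Gbp3, of the same protein family, lies on the same chromosome with 1 protein-coding gene between it and Gbp2 in RefSeq. Its intensity was 214.6, 167.3, 193.2, 141.1 and 170.1 in C57 and 125.6, 121.4, 82.2 and 209.5 in DBA. DBA array 4 lay within the C57 range and the other DBA arrays lay below it. The log2 difference was -0.46 ± 0.24 (adjusted p = 0.508), and as a fold its 95% interval ran from 0.499 to 1.06. It was -0.70 without DBA array 4 and -0.25 without DBA array 3, and did not pass with any 1 array left out (adjusted p 0.118 to 0.812).

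The immunity-related GTPases are a second family, of which Irgm1 is a regulator that guards the cell's own membranes. The intensity of Irgm1 was 91.2, 80.9, 82.3, 79.2 and 78.6 in C57 and 74.9, 55.1, 56.6 and 63.6 in DBA. Every DBA array was below every C57 array, a separation seen at 3 of the 32 member sets (2 with DBA above and 1 with DBA below) and at 6.45% of all tested sets (2.84% with DBA above and 3.61% below). The log2 difference was -0.41 ± 0.12 and did not pass after adjustment (adjusted p = 0.134, 0.0619 to 0.344 with any 1 array left out). Igtp, of the same family, overlapped between the strains (54.0 to 92.2 in C57 and 54.8 to 87.9 in DBA, difference -0.07 ± 0.19).

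The 2 sets of Iigp1, a GTPase that loads onto parasite vacuoles, pointed in different directions. The tested set was 45.9 to 68.1 in C57 and 12.9 to 46.7 in DBA (-0.96 ± 0.34, adjusted p = 0.249), so its DBA mean of 28.7 was below the brightness limit. The other was too dim to be tested, with means of 24.0 in C57 and 36.3 in DBA. No direction for Iigp1 follows from them. Ifi47 was dim in both strains, with means of 22.1 and 19.4.

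Mx1 and Mx2 encode dynamin-like antiviral GTPases, and RefSeq lists both as transcribed pseudogenes in the C57BL/6J assembly. Mx1 was below the brightness limit on all 9 arrays, at 5.0 to 26.9 in C57 and 5.9 to 12.5 in DBA. Mx2 lay at 42.5 to 72.3 in C57 and 26.3 to 71.2 in DBA, with a log2 difference of -0.13 ± 0.27.

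**Figure D3:**
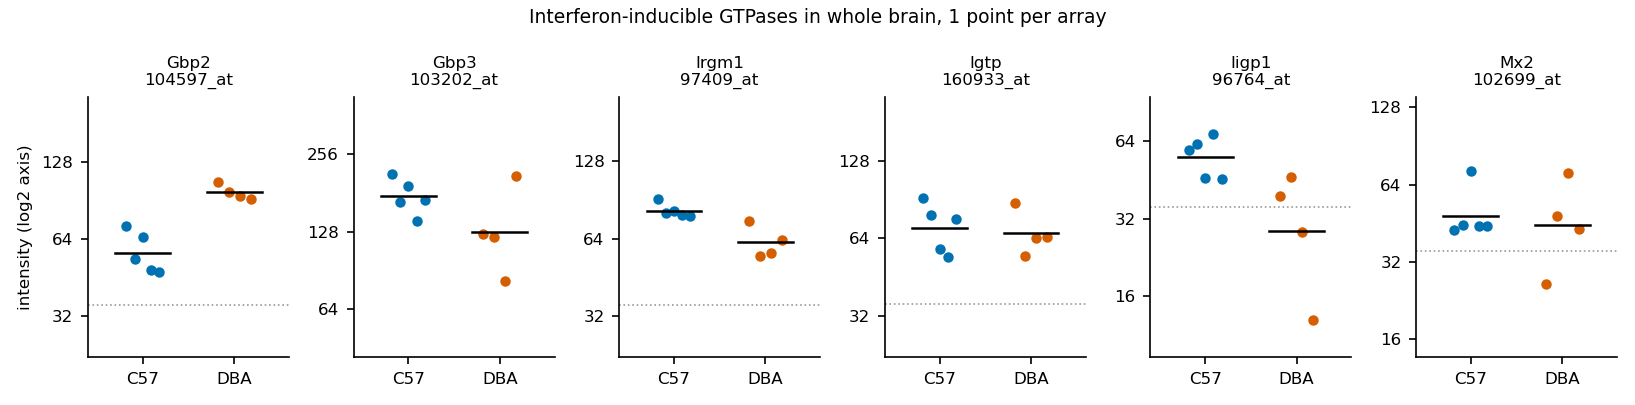
Deposited intensity (log2 axis) of 6 tested GTPase probe sets, 1 point per array, for 5 C57 (blue) and 4 DBA (orange) arrays. Black bars are geometric means and the dotted line is the brightness limit of 35.4. Gbp2 is higher in DBA without overlap, Irgm1 is lower without overlap and without passing the adjusted threshold, and the other 4 sets overlap.

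At the start of the pathway, all 6 receptor and kinase genes were measured and 0 of their 7 tested sets passed by limma. At an unadjusted limma p under 0.05 there was 1 (14.3%, against 12.2% of all tested sets). Ifnar1, the low-affinity chain of the type I receptor, was 347.6, 302.3, 336.7, 355.4 and 330.8 in C57 and 359.7, 428.9, 365.5 and 377.4 in DBA. The lowest DBA array was just above the highest C57 array, and the difference was 0.19 ± 0.10 (adjusted p = 0.492), at most 1.33-fold by its 95% interval. Ifnar2, the high-affinity chain, was measured by a pair of sets that differed by 0.21 ± 0.14 and 0.29 ± 0.20, and both overlapped between the strains. In RefSeq, Ifnar2, Ifnar1 and Ifngr2 follow one another on chromosome 16, with 1 other protein-coding gene between the first pair.

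Ifngr1, the ligand-binding chain of the type II receptor, had the smallest p of this group. Its intensity was 137.3, 160.0, 211.5, 159.5 and 133.7 in C57 and 74.1, 111.7, 155.6 and 107.3 in DBA. DBA array 3 lay inside the C57 range and the other DBA arrays below it. The log2 difference was -0.55 ± 0.21 (adjusted p = 0.324), with -0.72 without DBA array 3 and -0.36 without DBA array 1. Ifngr2, the signalling chain, differed by -0.13 ± 0.20.

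Jak1, the kinase shared by both receptor types, varied little between arrays. Its intensity was 1220, 1249, 1236, 1133 and 1290 in C57 and 1224, 1140, 1191 and 1199 in DBA, and the DBA arrays all lay inside the C57 range. The difference was -0.04 ± 0.09, with a 95% interval from -0.24 to 0.15. Jak2, which serves the type II receptor, differed by -0.15 ± 0.10 at its tested set, and its other set was too dim to be tested.

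Of the transcription factors, 6 of 8 genes had a probe set, and 0 of 8 tested sets passed by limma. At an unadjusted limma p under 0.05 there was 1 set (12.5%, against 12.2% of all tested sets). That set was Irf8, a factor of microglia and other myeloid cells. Its intensity was 140.7, 86.9, 146.0, 118.5 and 149.7 in C57 and 135.8, 188.4, 232.0 and 152.6 in DBA. DBA array 1 lay inside the C57 range, and the other DBA arrays lay above it. The difference was 0.46 ± 0.21 (adjusted p = 0.406). Of the 15 tested microglia marker sets, 6 were above 0, with a median log2 difference of -0.10 and summed intensities that overlapped between the strains. C1qb (1.81-fold) and C1qc (1.57-fold) were lower in DBA, and the part of the amount of microglia in the Irf8 value was not tested.

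Stat3, a factor downstream of cytokine receptors, was measured by 2 sets that gave like values. The brighter was 737.2, 642.6, 766.3, 780.4 and 666.3 in C57 and 649.4, 752.9, 752.3 and 750.2 in DBA. It differed by 0.02 ± 0.10, with a 95% interval of 0.861 to 1.19 as a fold, and the other set by 0.04 ± 0.11. Irf9, the DNA-binding part of the ISRE complex, differed by -0.20 ± 0.15 and Irf1, an early target of both interferon types, by 0.25 ± 0.15. Irf3, which is activated by sensors of viral nucleic acid, differed by -0.27 ± 0.17 at its tested set. Irf7, the interferon-induced amplifier of type I interferon, differed by -0.35 ± 0.32 at its dimmer set and by -0.10 ± 0.19 at its brighter set. The C57 arrays of the dimmer set spread from 24.4 to 78.7, so the 95% interval ran from -1.07 to 0.37, and its DBA mean of 34.5 was below the brightness limit.

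**Figure D4:**
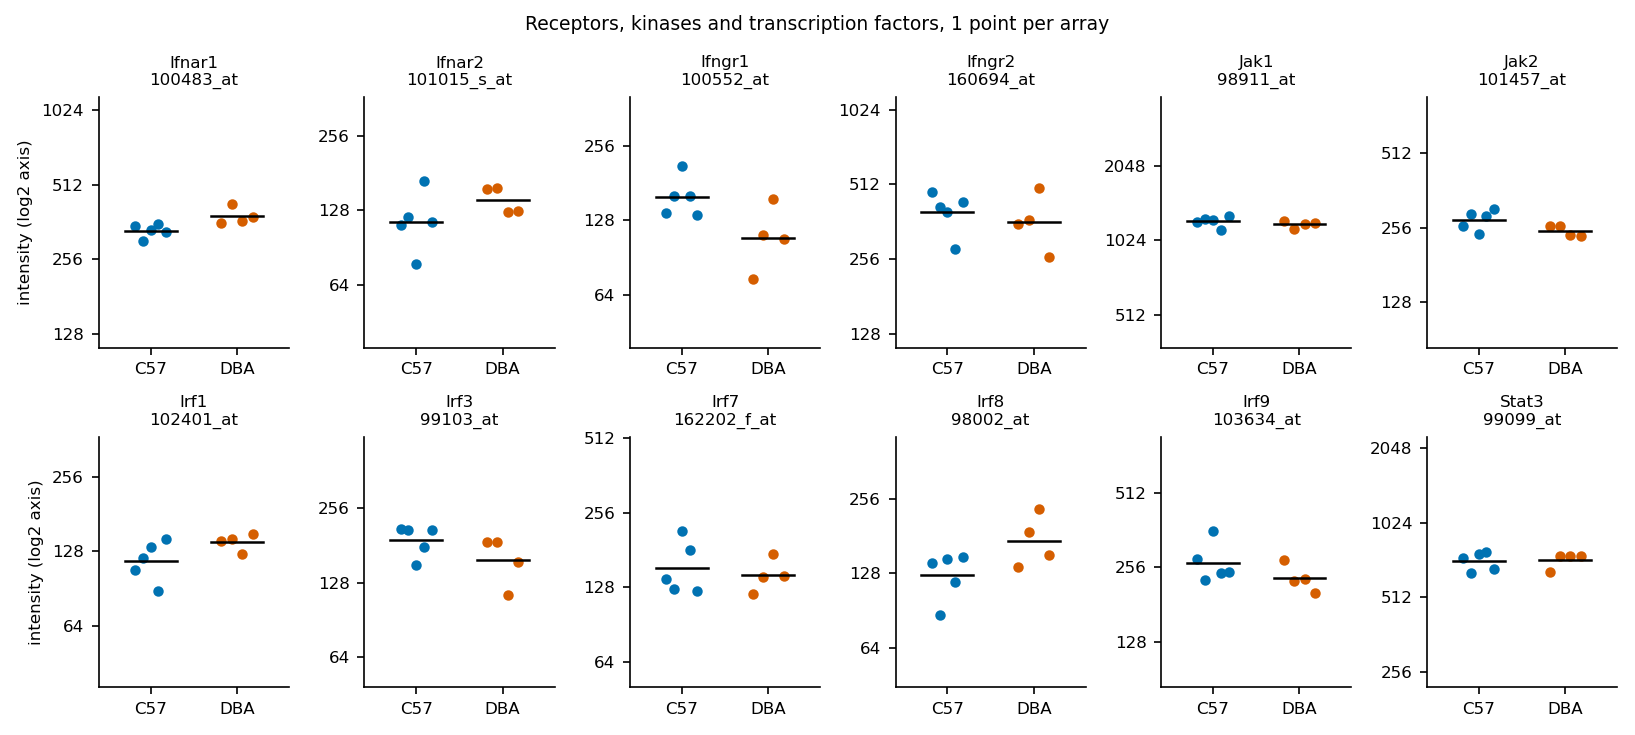
Deposited intensity (log2 axis) of the receptor, kinase and transcription factor genes, 1 probe set per gene and 1 point per array, for 5 C57 (blue) and 4 DBA (orange) arrays, with geometric means as black bars. Each panel spans the same number of doublings. Jak1 and Stat3 are tight within and between strains, and 3 of 4 DBA points lie below the C57 points at Ifngr1 and above them at Irf8.

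The feedback inhibitors shut the pathway off again. Socs1, which blocks the Janus kinases, was 53.6, 70.4, 114.4, 65.3 and 58.9 in C57 and 70.2, 96.0, 94.0 and 112.8 in DBA. C57 array 3 was above all DBA arrays, and the difference was 0.40 ± 0.23 (adjusted p = 0.551). Socs3 differed by 0.33 ± 0.32 at its tested set, where the DBA arrays ran from 40.3 to 103.8. Usp18, which removes Isg15 from proteins and blocks the type I receptor, was too dim to be tested, with means of 28.6 in C57 and 35.1 in DBA.

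Of the effectors that act on RNA, 0 of 6 tested sets passed by limma. At an unadjusted limma p under 0.05, 2 were higher in DBA and 0 lower (33.3%, against 12.2% of all tested sets). Ifit3, of the family that binds foreign RNA and blocks its translation, was 150.1, 154.6, 122.8, 113.2 and 119.9 in C57 and 215.7, 151.0, 170.5 and 168.2 in DBA. Only DBA array 2 lay inside the C57 range, and the difference was 0.42 ± 0.14 (adjusted p = 0.237). Ifit2, of the same family on chromosome 19, differed by 0.12 ± 0.27, with a 95% interval that holds the Ifit3 value. Ifit1, of the same family and chromosome, had means of 42.3 in C57 and 29.8 in DBA, so it passed the brightness limit only through C57. Whether the 3 genes differ from each other was not tested.

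Adar, which edits adenosine to inosine in double-stranded RNA, was 561.2, 493.9, 586.6, 417.2 and 462.3 in C57 and 594.4, 742.3, 686.3 and 558.5 in DBA at its brighter set. DBA array 4 lay inside the C57 range, and the difference was 0.36 ± 0.14 (adjusted p = 0.305). Its other set differed by 0.15 ± 0.18. Eif2ak2, the kinase PKR that halts translation on sensing double-stranded RNA, differed by 0.24 ± 0.24.

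The remaining effectors gave 3 tested sets, of which 0 passed by limma and 0 had an unadjusted p under 0.05 (12.2% of all tested sets did). Ifi27, a mitochondrial and nuclear envelope protein, was 781.1, 835.7, 773.7, 877.6 and 864.7 in C57 and 995.7, 1052, 1166 and 769.5 in DBA. DBA array 4 was the lowest of all 9 arrays and the other DBA arrays were the highest. The difference was 0.25 ± 0.13 (adjusted p = 0.490), with 0.37 without DBA array 4 and 0.17 without DBA array 3. Ifitm3, a membrane protein that blocks the entry of viruses, differed by 0.07 ± 0.14. Isg15, a ubiquitin-like modifier, differed by -0.26 ± 0.18, with 127.0 to 223.0 in C57 and 104.1 to 153.6 in DBA. Ifi35 was too dim to be tested (means of 26.8 and 44.2).

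The 3 sets named for Ifi204 alone, a DNA-binding protein of the interferon-inducible cluster on chromosome 1, were below the limit, with means from 4.73 to 20.6 in C57 and 2.25 to 28.1 in DBA. A further set carries the symbols Mndal, Ifi211, Ifi205 and Ifi204 together, so it is named for none of them, and it was singled out after its values were seen. It was 55.7, 51.4, 49.9, 36.5 and 32.5 in C57 and 2.3, 23.4, 2.4 and 7.3 in DBA. All DBA arrays were below all C57 arrays and below the brightness limit, with DBA arrays 1 and 3 close to 1.70, the lowest value used. The mean over all arrays kept this set out of the test. Without the filter on dim sets its log2 difference was -3.00 ± 0.64 and did not pass (adjusted p = 0.0677 by limma).

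Each array was also set against the mean of its own strain at the 32 tested sets. DBA array 4 was above its strain mean at 8 of the 32 member sets (median deviation -0.05 log2), while over all tested sets it was above it at 55.6%. The other 8 arrays were above their strain mean at 14 to 20 member sets, with median deviations between -0.07 and 0.07. The median SD among C57 arrays was 0.26 log2 at the member sets and 0.23 at all tested sets, and among DBA arrays 0.26 and 0.23. Of the 32 tested sets, Jak1 had the smallest SD in both strains (0.07 in C57 and 0.04 in DBA). The widest DBA spread was at the tested Iigp1 set (SD 0.82), where DBA array 4 was at 12.9.

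**Figure D5:**
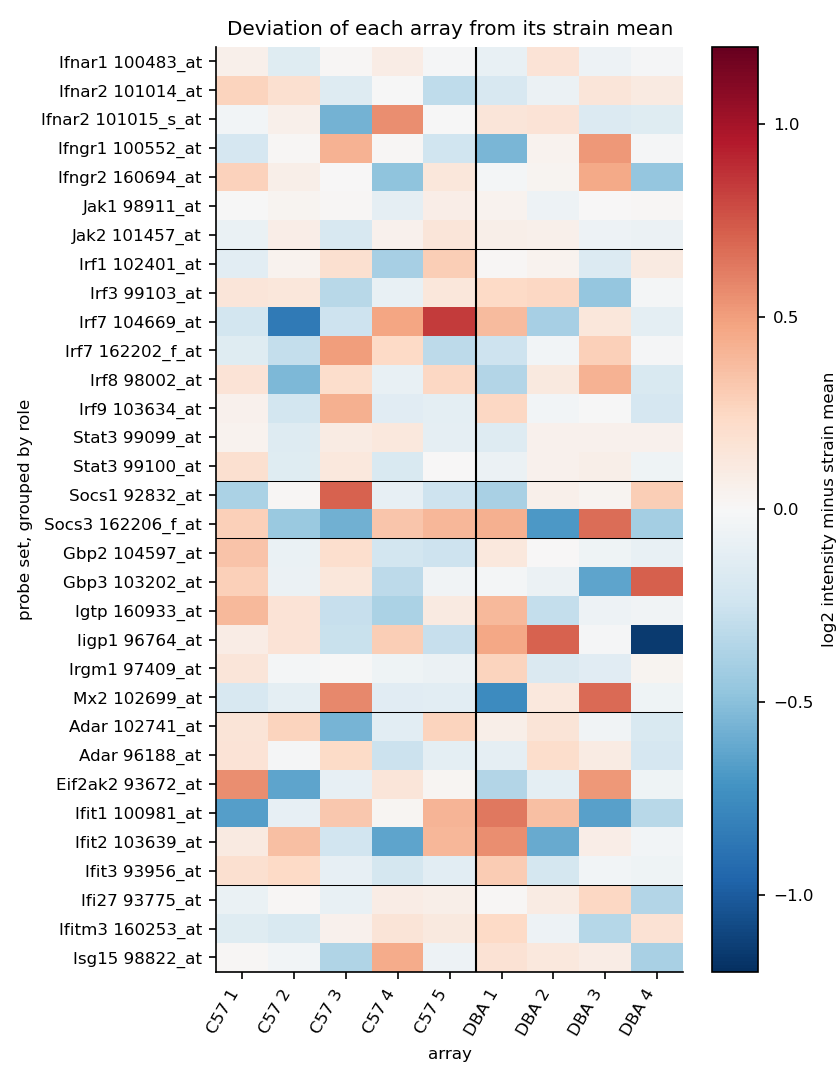
Log2 intensity of each array minus the mean of its own strain (colour scale) at the 32 tested member probe sets, with arrays in columns (5 C57, then 4 DBA) and probe sets in rows by role. The column of DBA 4 is below its strain mean at 24 of 32 sets, and the row of Jak1 is pale in every column.

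Where the windows held an ISRE core, 10 members had a tested set, and by the brightest set 5 of them were above 0 and 5 below (median log2 difference -0.00). Of 15 tested members whose windows held none, 8 were above 0 (median 0.02). Gbp2, with a difference above 0, and Irgm1, with one below it, both hold the motif.

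The rest of the pathway was read from a list of 97 further genes, of which 66 had a probe set and 44 had a tested one. Of their 55 tested sets 0 passed by limma in either direction, and 7 had an unadjusted p under 0.05, 6 higher and 1 lower (12.7%, against 12.2% of all tested sets). The median log2 difference was 0.08 against 0.01 over all tested sets, and 65.5% of the sets were above 0 against 51.7%. Of the ligands, Ifng was at 0.80 to 5.90 in C57 and 1.00 to 5.00 in DBA, and Ifnb1 was at 21.2 to 67.1 and 9.40 to 37.9, and neither was bright enough to be tested. The smallest p among the ligands was at Ifna4 (0.72 ± 0.56, adjusted p = 0.700), a set of a gene family of similar sequences. Among signalling genes the smallest p was at Stat5b, a STAT of growth hormone and cytokine signalling (0.48 ± 0.16, adjusted p = 0.207), and Tyk2, the other kinase of the type I receptor, differed by 0.08 ± 0.29. Among further inducible genes the smallest p was at Psme1, a proteasome activator subunit (0.34 ± 0.12, adjusted p = 0.268).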

How the data were processed

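The deposited values are probe set intensities, not on a log scale. Per the labels' protocol, cRNA was made from 5 ug of total RNA by the array maker's usual procedure. How probes were summarised and scaled is not stated in the labels. After trimming 2% of values at either end, the mean of each of the 9 arrays was 500.3, which is that of arrays scaled to 1 target. The 18 arrays with lettered titles were not used here, since members are defined on the other platform. Depth has no counterpart on arrays, and their number limits the precision.

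Of 12488 probe sets, 66 controls were left out. The platform annotation gave 1 symbol to 10855, updated through gene identifiers with RefSeq GRCm38.p6 for 10839. Intensities under 1.70 (the 1st percentile) were raised to it, log2 was taken, and the dimmest 25% of sets by mean were left out. Strains were compared with limma 3.58.1 (lmFit, then eBayes; R 4.3.3), after the script was tested on simulated data. The p-values measure the spread between these arrays, which may be technical if arrays share an animal. Folds are ratios of geometric means. Figures were drawn with matplotlib 3.10.9.

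The members and lists were chosen with earlier results of these data known. Values of each array are given for sets past the threshold, sets without overlap, and the set with the smallest p and the brightest set of each role. Alternatives were other scaling, another floor, an added constant in place of a floor, and other filters and variance models. Further ones were a replicate block, 1 set per gene, and leaving out each array.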

Additional observations from a re-analysis of the deposited data

Results flagged for a closer look

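In 3 of the 64 groups looked at (32 tested probe sets in each strain), 1 array lay far from the rest of its strain by Dixon's ratio, and chance gives about 1 in 20. Mx2 was 72.3 in C57 array 3, against 42.5 to 44.7 in the other C57 arrays. The brighter set of Stat3 was 649.4 in DBA array 1, against 750.2 to 752.9 in the other DBA arrays. Isg15 was 104.1 in DBA array 4, against 145.5 to 153.6 in the other DBA arrays.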

How the results depend on the processing

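Over all probe sets 233 differed, 154 with the brightest set of each gene (6864 genes tested in place of 9316 sets) and 185 to 231 with 1 array left out. The count of member sets was 1, Gbp2, under quantile normalization, median centring, a floor at the 10th percentile, no filter on dim sets and the brightest set of each gene. It was also 1 with log2(intensity + 16) and no floor, where Gbp2 was 0.64 (adjusted p = 0.0173 by limma). It was 0 with the dimmest 50% left out, where Gbp2 was not tested, 0 with trend and robust fitting (Gbp2 0.78, adjusted p = 0.101), and 0 to 1 with 1 array left out (Gbp2 0.72 to 0.87). With the array number as a replicate block, over arrays 1 to 4 of each strain, 73 sets differed, 0 of them members, and Gbp2 was 0.72 (adjusted p = 0.128). Deviations of same-numbered arrays correlated at -0.17 to -0.01 across sets, so the numbers were not taken to pair the arrays. No other pathway gene was called under any of these settings. Of 192 values of the 11 named sets without a call, 187 kept their direction and 0 passed the threshold. The 5 that turned were all of the brighter Stat3 set, at -0.00949 with the replicate block and -0.0226 to 0.0695 with 1 array left out.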
